A study of Mus musculus with 3 samples.

Results

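Cartilage, bone and tendon lineage genes were followed in mouse embryonic fibroblasts (MEFs), which are mesenchymal cells grown out of dissected embryos. The set holds 36 genes chosen by name, 15 of chondrocytes, 18 of osteoblasts and 3 of tendon cells, and every one of them has a row in the deposited table of 21782 genes. The values are reads counted per gene in 3 libraries of polyA-selected RNA, 1 from each of 3 wild type (WT) clones. All clones carry the genotype WT, came from E12.5 embryos, were grown asynchronously in DMEM with 20% FBS, and received no treatment, so no conditions were compared and the comparisons below are between genes and between clones. The sources do not say whether the clones came from separate embryos, and each has 1 library, so a clone cannot be told apart from its culture or its library, and p-values measure only how these libraries differ.

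Chondrocytes, osteoblasts and tendon cells arise from mesenchymal progenitors of the embryo. SOX9, helped by SOX5 and SOX6, switches on the cartilage matrix genes, of which type II collagen and aggrecan are the most abundant products. RUNX2, bound to its partner CBFB, and then SP7 (osterix) direct progenitors to the osteoblast fate, in which matrix proteins are laid down first and mineralisation genes such as osteocalcin and bone sialoprotein come late. Scleraxis and Mohawk are transcription factors of the tendon lineage, and tenomodulin is a membrane protein of mature tendon cells.

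Library sizes were between 22594316 and 25261357 counts, and levels are given as counts per 1000000 counts (CPM) after scaling of the libraries by the TMM method. A count of 0 still allows up to 3 counts, equal to 0.121, 0.133 and 0.119 CPM in clones 1, 2 and 3. All 10 genes of a fibroblast list reached 1 CPM in every clone, with Col1a1 highest at 27710 CPM, although Lum averaged 2.03 CPM and Dcn 7.74 CPM. All 12 genes of a macrophage list were highest in clone 2, where their sum was 1908 CPM against 406 and 336 CPM in clones 1 and 3. The 6 genes of a proliferation list had sums of 368, 723 and 609 CPM in the same order. In bulk RNA, fewer cells of a type and less RNA per cell cannot be told apart.

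The osteoblast genes span the widest range of levels, and 3 of them are shown with the 250 bases that lie upstream of their start, because they share a lineage and yet differ widely in level. Spp1 encodes osteopontin and was among the most abundant transcripts. Bglap encodes osteocalcin and Ibsp bone sialoprotein, and both were close to absent. Sequences are from RefSeq on GRCm38.p6, taken at the first listed start, and read 5′ to 3′ on the strand of the gene. Capitals mark the core RUNX binding sequence TGTGGT or its reverse complement ACCACA. They also mark the TATA box TATAAA between 45 and 16 bases before the start, on the strand of the gene only. The windows are chr5:104434861-104435110 on the plus strand for Spp1, chr3:88384467-88384716 on the minus strand for Bglap and chr5:104299037-104299286 on the plus strand for Ibsp.
Spp1: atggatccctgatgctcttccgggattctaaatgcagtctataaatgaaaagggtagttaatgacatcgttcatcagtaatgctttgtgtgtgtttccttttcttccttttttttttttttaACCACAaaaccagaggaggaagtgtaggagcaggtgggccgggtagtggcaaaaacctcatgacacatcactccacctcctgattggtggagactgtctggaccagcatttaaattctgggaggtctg
Bglap: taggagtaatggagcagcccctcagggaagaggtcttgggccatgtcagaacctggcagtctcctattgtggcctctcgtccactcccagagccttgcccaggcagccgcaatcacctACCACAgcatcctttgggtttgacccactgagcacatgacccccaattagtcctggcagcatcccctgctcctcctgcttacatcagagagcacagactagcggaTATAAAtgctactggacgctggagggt
Ibsp: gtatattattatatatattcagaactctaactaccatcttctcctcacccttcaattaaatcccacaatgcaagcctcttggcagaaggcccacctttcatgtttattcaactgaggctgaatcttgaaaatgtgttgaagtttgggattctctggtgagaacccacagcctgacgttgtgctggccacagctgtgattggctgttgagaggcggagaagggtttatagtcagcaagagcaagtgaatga
The RUNX core began 128 bases before the start in Spp1 and 132 bases before it in Bglap, in the same orientation, and it was not in the window of Ibsp. Of the 28 members for which RefSeq lists a promoter, 8 held the core in this window on either strand (28.6%), against 14.2% of 27025 genes. It was held by 3 of the 12 such members that were expressed in every clone and by 5 of the 16 that were not. A SOX core (AACAAT, both strands) was found in 2 of 28 members and in 9.6% of all genes. A TATA box on the strand of the gene was found in 2 of 28, Bglap and Chad, and in 2.4% of all genes. Its reverse complement TTTATA was not searched for, and the window of Ibsp holds it between 45 and 16 bases before the start. None of the 3 motifs contains another, and a match describes letters only.

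Of the 36 members, 19 (52.8%) reached at least 1 CPM in every clone, close to the 52.2% of all genes in the table that did. They were 7 of 15 chondrocyte genes, 9 of 18 osteoblast genes and all 3 tendon genes. Per length, as TPM (transcripts per 1000000), that is CPM per kb of all annotated exons rescaled to 1000000, the median level was 0.784 TPM for the chondrocyte genes, 2.03 TPM for the osteoblast genes and 7.02 TPM for the tendon genes, against 2.38 TPM over the whole table. Behind these medians the range was wide. Sparc, Spp1, Postn and Mgp together held 96.7% of the summed mean CPM of all members, which counts reads and not molecules, whereas 21 members stayed under 100 counts in every clone. Cilp and Sost had no count in any clone, and Bglap and Mepe had at most 1.

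**Figure D1:**
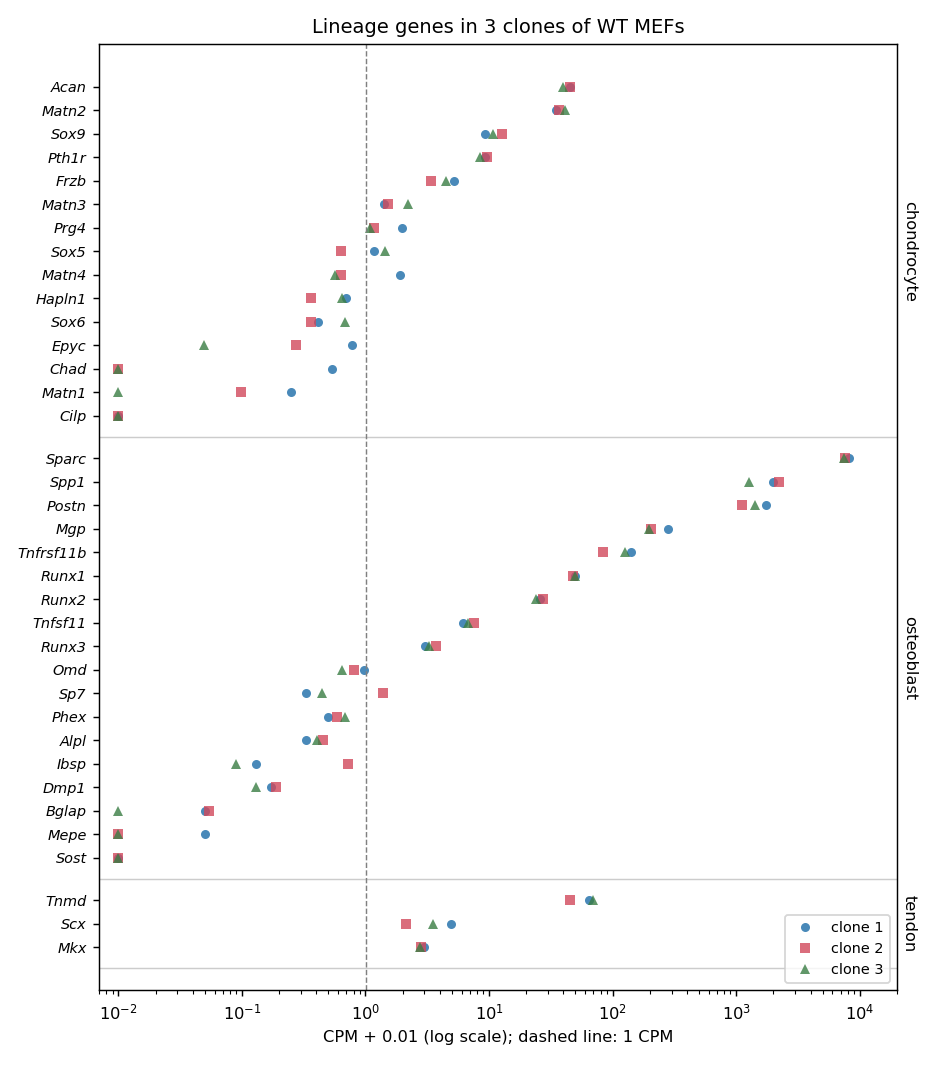
CPM + 0.01 on a log axis for the 36 members, grouped by lineage and sorted by mean, with 1 symbol per clone and a dashed line at 1 CPM. Sparc, Spp1 and Postn lie at 1114 CPM or above in all 3 clones, while Cilp and Sost sit at the left edge, where the count is 0.

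In the order by TPM, Sparc was first at 8085 ± 379 (SD, n = 3 clones) and 8th of all genes, followed by Spp1 at 4419 ± 1123, which was 21st. Mgp at 763 ± 150.1 and Postn at 652 ± 146 came next, with ranges over the clones that overlapped. Tnmd at 176 ± 39.8 and Tnfrsf11b at 165 ± 42.9 also overlapped. Below a gap followed Matn2 at 24.0 ± 2.56 and Acan at 23.1 ± 1.29, and then Runx1 at 16.2 ± 0.542. Pth1r, Tnfsf11, Runx2, Sox9, Scx and Frzb lay between 12.4 and 5.33 TPM, and each overlapped with its neighbours among these 6. The first 2 places and those of Tnmd and Tnfrsf11b were the same when each gene was given the length of its longest-CDS transcript, the one coding for the longest protein,, but Postn then stood above Mgp and Runx2 moved from place 12 to place 7.

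Among the chondrocyte transcription factors, Sox9 was the only one expressed in every clone. Sox9, on chromosome 11 from 112782224 to 112787760 in GRCm38, had 230, 288 and 271 counts in the 3 clones (10.9 ± 1.77 CPM). Its partners had fewer reads. Sox5 had 29, 14 and 36 counts and Sox6 had 10, 8 and 17. The difference in Sox5 was close to the threshold (adjusted p = 0.0424, chi-square test), and the call was lost when genes with low counts were kept in the test. Sox5 took 68.6% ± 5.40 of the counts of these 2 paralogs, with a 95% Wilson interval for clone 2 of 43.0% to 80.3%, which covers counting error only, as do the other intervals given here. Per kb of the longest-CDS transcript the share was 47.0%, so which of the 2 was higher depends on the length used. An antisense gene, Sox5os1, overlaps 9.3% of the exon length of Sox5, and the strand setting of the counting is not stated.
Acan and Matn2 stood well above the other matrix genes, of which Matn3 and Prg4 also reached 1 CPM in every clone. Acan, which encodes aggrecan, the large proteoglycan that holds water in cartilage, had 1120, 1027 and 1004 counts in clones 1, 2 and 3 (43.5 ± 3.22 CPM). Matn2, a matrilin that is also made outside cartilage, had 864, 838 and 1047 counts (37.8 ± 3.38 CPM). Clones differed by at most 1.14-fold in Acan and 1.19-fold in Matn2. These were the 2 flattest of the 7 chondrocyte genes that passed the test between clones.
The matrilins form a family of adaptor proteins that link collagen and proteoglycans. Matn2 took 93.0% ± 1.93 of all matrilin counts. Matn3 had 35, 34 and 56 counts, and Matn4 had 47, 14 and 14. Matn1, the matrilin most particular to cartilage, had 6, 2 and 0 counts. Per kb of all exons the share of Matn2 was 88.0%, and per kb of the longest-CDS transcript it was 90.8%, so Matn2 led the family under either length.
The remaining matrix genes had few reads. Hapln1, the link protein that fixes aggrecan to hyaluronan, had 17, 8 and 16 counts. Epyc, a small leucine-rich proteoglycan of the growth plate, had 19, 6 and 1 counts, and Chad (chondroadherin), a cell-binding protein of the same family, had 13 counts in clone 1 and 0 in the others. The level of Chad in clone 1 was at least 3.93-fold higher than the 3-count limit per library in clone 2 and at least 4.40-fold higher than that in clone 3. For Epyc, 39.0% of the 86-nt stretches of its transcript also match the antisense gene Gm10754, so its few counts are uncertain. Prg4, the joint lubricant lubricin, had 49, 26 and 27 counts (1.40 ± 0.499 CPM), highest in clone 1. Tpr, on the opposite strand, overlaps 4.8% of the exon length of Prg4 and matches 3.0% of its 86-nt stretches. The part of Tpr in the few counts of Prg4 was not tested. Cilp, of the intermediate layer of cartilage, was not detected.
Among genes of signalling in the growth plate, Pth1r and Frzb were expressed in every clone. Pth1r, the receptor of parathyroid hormone and of PTHrP, had 231, 218 and 215 counts (9.16 ± 0.590 CPM), and the clones did not differ in the test (adjusted p = 0.464, chi-square test). Its ligand gene Pthlh had 3, 15 and 5 counts, and Ihh, the hedgehog ligand that induces Pthlh in the growth plate, had 6, 1 and 0. Frzb, a secreted Wnt inhibitor of articular cartilage, had 128, 76 and 113 counts (4.33 ± 0.899 CPM) and was lowest in clone 2.
Other cartilage genes, from a list of 11 collagens and matrix proteins, were set beside the members. The list was chosen with earlier results of these data known, so its shares describe the list and are no independent support. Of the 11 genes, 9 had enough counts for the test, and all 9 differed between clones, where 62.2% of all genes tested did. In 8 of the 9 the difference was at least 2-fold, beside 6.45% of all genes tested. These 8 were all highest in clone 1, as were 205 of the 813 genes of the whole table with such a difference. Under a negative binomial variance, which allows for the usual spread between these clones, 3 of the 9 were called, Col11a1, Col11a2 and Cnmd, beside 2.05%. Col2a1, the type II collagen gene, had 18263, 10979 and 18297 counts in clones 1, 2 and 3 and differed by 1.51-fold. Its highest clone depended on the scaling, with 735 CPM in clone 1 and 724 CPM in clone 3 under TMM but 723 and 738 CPM when only library totals were used. Col11a1 had 15788, 4464 and 12319 counts. Col9a1 had 111, 54 and 8 counts, and Col9a2 had 100, 39 and 4. Cnmd, listed as Lect1 in the table, had 68, 21 and 1. Among the chondrocyte members, Matn1, Matn4, Hapln1, Chad, Epyc, Prg4 and Frzb were highest in clone 1, whereas Sox5, Sox6, Sox9, Acan, Matn2, Matn3 and Pth1r were not. Of the 7 chondrocyte members called, 3 were highest in clone 1 (Matn4, Prg4 and Frzb), beside 2963 of the 7836 genes called in the whole table. Hapln1 did not differ between clones (adjusted p = 0.336, chi-square test). Matn1, Epyc and Chad were under the mean of 10 counts required for the test. Without this filter, Chad and Epyc had adjusted p-values of 1.48e-05 and 0.000234 and Matn1 of 0.0677 in the chi-square test.

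**Figure D2:**
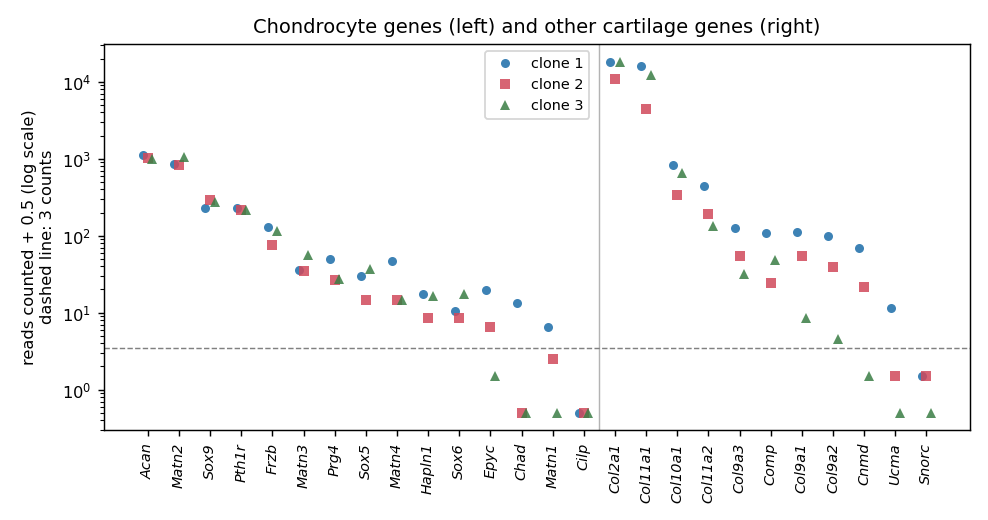
Reads counted + 0.5 on a log axis for the 15 chondrocyte genes (left of the line) and the 11 other cartilage genes (right), with 1 symbol per clone; the dashed line marks 3 counts. Acan, Matn2 and Sox9 stay close together across clones, while Col9a1, Col9a2, Cnmd and Epyc fall from 111, 100, 68 and 19 counts in clone 1 to 8, 4, 1 and 1 in clone 3.

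All 3 Runx genes were expressed in every clone, and their counts varied little between clones. Runx1, on chromosome 16 from 92601466 to 92826149 and better known for blood development, had 1228, 1083 and 1244 counts in clones 1, 2 and 3 (48.9 ± 0.762 CPM). Runx2, on chromosome 17 from 44495987 to 44814797 and required for bone formation, had 637, 614 and 607 counts (25.6 ± 1.60 CPM). Runx3, on chromosome 4 from 135120652 to 135177990, had 75, 83 and 83 counts (3.33 ± 0.333 CPM). None of the 3 differed between clones in the chi-square test (adjusted p = 0.794, 0.131 and 0.518). The highest clone was 1.03-fold above the lowest for Runx1, 1.13-fold for Runx2 and 1.19-fold for Runx3. Runx1 and Runx3 are also active in leukocytes. The macrophage list was 5.67-fold higher in clone 2 than in clone 3 in summed CPM. Runx1 was lowest in clone 2 and Runx3 highest in it, by differences that were not called. The part of leukocytes in the reads of Runx1 and Runx3 was not tested.
Of the reads on the Runx family, Runx1 took 63.3% in clone 1 (95% Wilson interval 61.1 to 65.4), 60.8% in clone 2 (58.6 to 63.1) and 64.3% in clone 3 (62.2 to 66.4). The mean shares were 62.8% ± 1.79 for Runx1, 32.9% ± 1.56 for Runx2 and 4.27% ± 0.399 for Runx3. Runx1 was ahead of Runx2 in every clone by more than counting error, with 1.91 ± 0.143 reads for each read of Runx2. Per length the answer was not fixed. Per kb of all exons Runx1 kept 53.3% and Runx2 rose to 38.0%, and per kb of the longest-CDS transcript, which is 5861 nt for Runx1 and 1791 nt for Runx2, Runx2 led with 60.8% against 35.5%. Runx3 was the lowest under each length. Cbfb, the shared partner of the RUNX proteins, had 1063, 1109 and 1210 counts (46.6 ± 3.39 CPM).

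**Figure D3:**
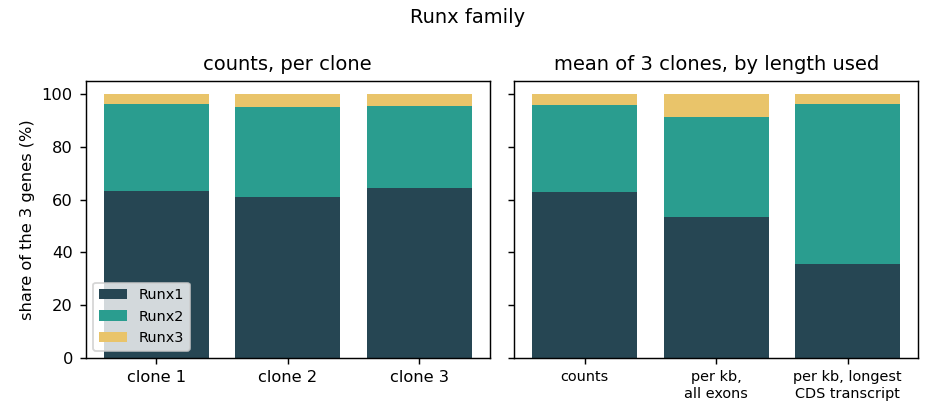
Shares (%) of Runx1, Runx2 and Runx3 in the reads of the family for each clone (left) and as means over the 3 clones for counts, per kb of all exons and per kb of the longest-CDS transcript (right). Runx1 has 60.8% to 64.3% of the counts in every clone, but 35.5% per kb of the longest-CDS transcript.

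Sp7, the factor that acts after Runx2, was low and uneven, with 8, 31 and 11 counts (0.711 ± 0.578 CPM). Sp7 stood 2.28-fold higher in clone 2 than in clone 1 on the scale of CPM + 0.5 (adjusted p = 3.57e-05, chi-square test). It passed the filter of a mean of 10 counts only through clone 2, where it was high, so this p-value adds no support. Clone 2 is also the clone with the high macrophage list, and the part of this in the result was not tested.
Genes of the osteoblast matrix that fibroblasts share were the most abundant members. Sparc, on chromosome 11 from 55394500 to 55423183, encodes osteonectin, a collagen-binding glycoprotein. Sparc had 202031, 170319 and 187392 counts (7701 ± 379 CPM), and in mean CPM it was 7th of all genes. Its clones differed by only 1.10-fold, although the test called even this difference at the depth of these libraries. Postn, which encodes periostin of the periosteum and other collagen-rich tissue, had 43051, 25118 and 36100 counts (1425 ± 309 CPM), lowest in clone 2. Mgp, matrix Gla protein, which inhibits calcification, had 6968, 4643 and 4989 counts (228 ± 45.7 CPM), highest in clone 1.
Spp1 had 49623, 50452 and 32287 counts (1838 ± 499 CPM). It was lowest in clone 3, by 1.75-fold against clone 2, and without clone 3 the other two differed by 1.12-fold. Osteopontin is made by macrophages too. Spp1 was at 1997, 2237 and 1278 CPM in clones 1, 2 and 3, beside sums of 406, 1908 and 336 CPM for the macrophage list, so both were highest in clone 2 and lowest in clone 3. The part of macrophages in the level of Spp1 was not tested. The gene model Gm42793 covers 18.8% of the exon length of Spp1 on the same strand, and how reads shared by both were counted is not stated.
The members Alpl, Bglap, Ibsp, Omd, Phex, Dmp1, Mepe and Sost were not expressed at 1 CPM in every clone. Alpl, the alkaline phosphatase that frees phosphate for mineral, had 8, 10 and 10 counts (0.387 ± 0.0612 CPM). Bglap had 1, 1 and 0 counts. Its neighbours Bglap2, at 0 counts in every clone, and Bglap3, at 3, 1 and 2, match 92.1% of the 86-nt stretches of the Bglap transcript within 2 mismatches, so the counts of these copies are uncertain. Ibsp had 3, 16 and 2 counts. Without the filter on low counts, Ibsp differed between clones with an adjusted p of 0.000153 in the chi-square test, and it was highest in clone 2 as Sp7 was. Omd (osteomodulin) had 24, 18 and 16 counts, and Phex, an endopeptidase of phosphate control, had 12, 13 and 17; neither differed between clones. Genes of osteocytes were at the limit, with 4, 4 and 3 counts for Dmp1, 1, 0 and 0 for Mepe and none for Sost, the Wnt inhibitor sclerostin.
Dmp1, Ibsp, Mepe and Spp1 lie in this order on the plus strand of chromosome 5 within 238 kb, from 104202613 to 104441050. They encode related acidic phosphoproteins of bone and tooth matrix. Spp1 begins 97 kb after the end of Mepe. Per length its mean of 4419 TPM stood against 0.575 TPM for Ibsp, 0.219 TPM for Dmp1 and 0.0316 TPM for Mepe, and Spp1 took at least 99.96% of the reads of the 4 genes in each clone.

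**Figure D4:**
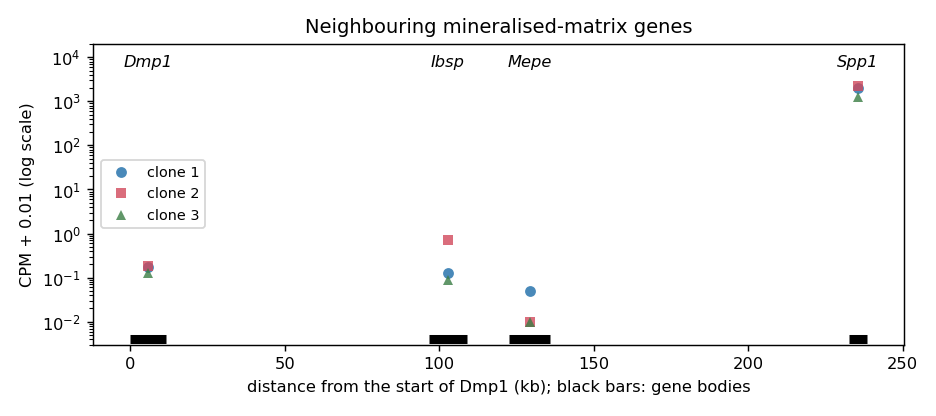
CPM + 0.01 on a log axis for Dmp1, Ibsp, Mepe and Spp1 in the 3 clones, placed at their distance in kb from the start of Dmp1; black bars are the gene bodies. Spp1 lies at 1278 CPM or above in every clone and the 3 other genes below 1 CPM.

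Tnfrsf11b and Tnfsf11 form the pair that controls osteoclast formation. Tnfsf11 encodes the ligand RANKL, and Tnfrsf11b encodes osteoprotegerin, the secreted decoy that binds it. Tnfrsf11b had 3484, 1895 and 3175 counts (117 ± 29.2 CPM) and was lowest in clone 2. Tnfsf11 had 153, 171 and 169 counts (6.81 ± 0.720 CPM), and the clones did not differ in it (adjusted p = 0.219, chi-square test). For each read of Tnfsf11 the clones had 22.8, 11.1 and 18.8 reads of Tnfrsf11b. The share of Tnfrsf11b in the pair was 95.79% (95% Wilson interval 95.09 to 96.40), 91.72% (90.46 to 92.84) and 94.95% (94.15 to 95.64), so that clone 2 lay apart from both others by more than counting error. Per kb of exon the mean share was 92.8% ± 2.62. The receptor gene Tnfrsf11a had 326, 464 and 346 counts, highest in clone 2, the clone with the high macrophage list. The other osteoclast genes called by the chi-square test did not share this pattern. Ctsk was at 47.7, 47.6 and 31.6 CPM in clones 1, 2 and 3, and Acp5 at 1.77, 1.24 and 0.911 CPM. The part of macrophages in these levels was not tested.

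All tendon genes were expressed in every clone, and per length Tnmd, at 176 TPM, exceeded Scx at 7.02 TPM and Mkx at 2.74 TPM. Tnmd, on the X chromosome from 133850980 to 133865577, had 1600, 1025 and 1743 counts in clones 1, 2 and 3 (59.6 ± 12.5 CPM). Scx had 123, 48 and 89 counts (3.53 ± 1.41 CPM), and Mkx had 73, 63 and 69 (2.82 ± 0.106 CPM). There were 18.0 ± 4.40 reads of Tnmd for each read of Scx. Tnmd and Scx were lowest in clone 2 and both differed between clones in the chi-square test (adjusted p = 4.69e-26 and 6.11e-06), Scx by 2.07-fold on the scale of CPM + 0.5 and Tnmd by 1.51-fold. Mkx was even, at 1.06-fold (adjusted p = 0.921). Of 8 other genes of tendon matrix and its regulators, 7 were expressed in every clone, led by Tgfb3 at 545 ± 28.1 CPM and Egr1 at 243 ± 47.9 CPM. Fmod (fibromodulin) was at 68.9 ± 2.87 CPM, and Thbs4 had 4, 2 and 8 counts.

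Of the 36 members, 26 had a mean of at least 10 counts and entered the chi-square test, which asks whether the 3 counts follow the scaled library sizes and was run over 12608 genes. The test called 15 of the 26 (57.7%) with an adjusted p under 0.05, beside 62.2% of all genes tested. By lineage these were 7 of 11 chondrocyte genes, 6 of 12 osteoblast genes and 2 of 3 tendon genes. A difference of at least 2-fold was reached by 3 members, Matn4, Sp7 and Scx (11.5%), beside 6.45% of all genes tested. Of these, Matn4 and Scx were highest in clone 1 and Sp7 in clone 2, and none was highest in clone 3. Of all genes tested, 1.63% had such a difference with clone 1 highest, 4.38% with clone 2 highest and 0.444% with clone 3 highest. Sp7 passed the filter on counts only through clone 2. The 11 members that were not called include Runx1, Runx2, Runx3, Pth1r, Tnfsf11 and Mkx. The median of the highest over the lowest clone was 1.39 for the chondrocyte genes, 1.25 for the osteoblast genes and 1.51 for the tendon genes, and 1.23 over all genes tested.

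**Figure D5:**
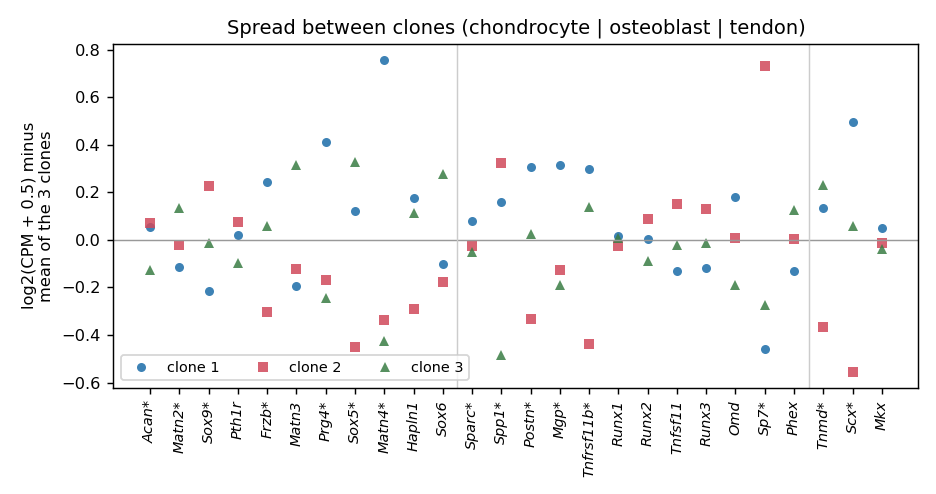
For the 26 members tested, log2(CPM + 0.5) in each clone minus the average over the 3 clones, with 1 symbol per clone; members called by the chi-square test carry an asterisk. Matn4 and Scx stand out for clone 1 and Sp7 for clone 2, while the Runx genes and Mkx lie close to 0 in every clone.

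The direction varied among the members called. Of the 15 called, the highest clone was clone 1 for 8, clone 2 for 4 and clone 3 for 3. Of the 7836 genes called in the whole table, it was clone 1 for 2963, clone 2 for 2973 and clone 3 for 1900. Sox5, Frzb, Postn, Tnfrsf11b, Tnmd and Scx were called with clone 2 lowest, as were 21.1% of all genes tested. The median deviation of log2(CPM + 1) in clone 2, over members with a mean of at least 1 CPM, was -0.10 for 9 chondrocyte genes, -0.03 for 9 osteoblast genes and -0.36 for 3 tendon genes, against 0.0 over all genes with that mean. Without clone 1, 9 members were called, and Matn4, Prg4, Frzb, Mgp, Sox9 and Matn2 were no longer among them. The difference in Matn4 then was 1.06-fold in place of 2.27-fold, and that in Prg4 1.05-fold in place of 1.58-fold. Without clone 2, 11 were called, and Sp7, then under the mean of 10 counts, Tnmd, Frzb, Sox9 and Sox5 were lost while Epyc was gained. Scx was still called without clone 1, at 1.53-fold, and without clone 2, at 1.35-fold, so its difference of 2-fold was lost in both cases. Without clone 3, 13 were called, with Acan, Matn2 and Sox5 lost and Epyc gained.
When the spread that genes of the same level usually show between these clones was allowed for, by a negative binomial variance with the trended dispersion of edgeR, none of the 26 members was called, beside 2.05% of all genes tested. An unadjusted p under 0.05 in this test was reached by 3 members, Sp7, Spp1 and Tnfrsf11b. The share of all genes under this limit was not counted, so whether 3 is unusual cannot be said. With 1 dispersion common to all genes, Matn4 and Sp7 were called, beside 392 of 12608 genes tested.

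Other genes of the same pathways, 66 in lists chosen with earlier results of these data known, were read beside the members. The gene named as leading a list was highest in CPM and in TPM. Of the 66 genes, 51 were tested and 39 were called by the chi-square test, beside 62.2% of all genes tested. Under the negative binomial variance 4 were called, beside 2.05%. A difference of at least 2-fold was found in 9, beside 6.45%, 8 of them from the cartilage list and the other Bmp4, which had 1180, 349 and 797 counts. Of 13 genes of BMP and GDF signalling, 10 were expressed in every clone, led by the inhibitor Grem1 at 92.9 ± 7.26 CPM, and Gdf5, a signal of joint formation, had 14, 6 and 7 counts. Of 7 hedgehog and PTHrP genes, 4 were expressed, led by Smo at 123 ± 3.97 CPM. Of 13 regulators of osteoblasts, 9 were expressed, with Atf4 at 245 ± 32.3 CPM highest and Twist1, which restrains RUNX2, at 26.6 ± 2.57 CPM. Dlx5 had 32, 15 and 31 counts. Of 7 genes of mineral and phosphate handling, 5 were expressed, led by the phosphate transporter Slc20a1 at 293 ± 18.0 CPM. Ank, which exports the mineralisation inhibitor pyrophosphate, was at 140 ± 26.6 CPM. Of 7 osteoclast genes, 3 were expressed, with Ctsk highest at 42.3 ± 9.28 CPM, while Calcr, Dcstamp and Ocstamp had at most 2 counts in any clone.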

How the data were processed

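The authors deposited raw read counts per gene for 3 libraries of polyA RNA from wild type MEF clones. Per the study's methods and the submitters' processing notes, 86-nt single-end reads were aligned with TopHat2 2.0.0 and Bowtie 0.12.7 (2 mismatches, up to 5 multiple hits), handled with SAMtools 0.1.16 and counted with HTSeq, whose version, annotation and strand setting are not given in the sources used here. The methods name mm10 and the processing notes list mm9, so positions and exon lengths were taken from the GRCm38 annotation by symbol (99.7% of genes matched), and only counts come from the deposited table. Libraries were scaled by TMM in edgeR 4.0.16 (R 4.3.3). The 3 counts of each gene with a mean of at least 10 counts were compared with the scaled library sizes by a chi-square test, adjusted by Benjamini-Hochberg over 12608 genes at 0.05, and folds were taken on CPM + 0.5. A further test used a negative binomial variance with edgeR's trended dispersion. Expression was called where all 3 clones reached 1 CPM. All members were described, with no set test. Scripts were tested on simulated data. The members and all gene lists were chosen with earlier results of these data known. Alternatives changed the scaling, the filter, the added CPM, the dispersion, the gene length and the clones included.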

Additional observations from a re-analysis of the deposited data

How the results depend on the processing

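No paired analysis was possible because the study has 1 group. With 1 clone left out at a time, 9 to 13 members differed between clones in the chi-square test, against 15 with all 3, and 1 to 3 differed by at least 2-fold, against 3. With no filter on low counts, 6 members differed by at least 2-fold, and with 2 CPM added none did (0). With a common dispersion, 2 members were called under the negative binomial variance, against 0, and 392 of all genes tested, against 258. Shares within families moved with the gene length: per kb of all exons Runx1 had 53.3%, Runx2 38.0%, Runx3 8.71% and Matn2 88.0%, and per kb of the longest-CDS transcript Runx1 had 35.5%, Runx2 60.8%, Runx3 3.64%, Sox5 47.0% and Matn2 90.8%. The number of members expressed was 19 to 22 under the alternatives run. Single members were compared only where they passed the filter on counts both with and without the change. Of these 203 comparisons, 187 kept their side of the threshold, 15 were no longer called and 1 was newly called. This leaves out Sp7, lost where it failed the filter, and Chad, Epyc and Ibsp, gained where they entered the test. Scaling by library totals alone, an alternative for directions chosen after seeing the data, moved the highest clone of Runx1, which was not called, and of Col2a1. Members under 10 counts on average are limited by depth.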
